A study of Mus musculus with 6 samples.

Results

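Intronic distal regions were defined here as open-chromatin regions inside protein-coding genes, away from exons and from transcription start sites (TSS). The peaks of 6 ATAC-seq libraries were merged where they overlapped by 1 bp or more, and regions with a peak in 2 or more libraries were kept. A region was a member when its midpoint lay in a protein-coding gene body, in no exon of any GENCODE transcript and more than 2 kb from any TSS. Of 140360 regions, 56442 (40.2%) were members, and the rest comprised 33832 promoter regions within 2 kb of a TSS, 39892 intergenic regions, 4928 exonic regions and 5266 regions in noncoding genes only. The member nearest to a TSS lay 2001 bp away, in *Gm42906*, and the farthest region kept out by the limit lay 2000 bp away, in *Mfn1*. All 6 libraries came from primary visual cortex (V1) of GR fl/fl mice at P21. Newborn mice (P0-P1) received AAV2/5 in which the astrocyte promoter GfaABC1D drove ΔCre-T2A-EGFP-KASH-4x6T (GR-con, 3 libraries) or Cre-T2A-EGFP-KASH-4x6T (GR-KO, 3 libraries). Controls therefore also carried the floxed alleles, the virus and the nuclear-membrane EGFP. Each library pooled V1 from several mice, and nuclei positive for both DRAQ5 and GFP were sorted before transposition. The construct joins EGFP to Cre or ΔCre through T2A, so the sort took nuclei that expressed it. Recombination itself was not measured in these libraries. In other experiments the paper counted GR in GFP-positive cells by staining and reports attenuated GR binding in GR-KO astrocytes.

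ATAC-seq marks DNA that a transposase can reach, and distal open regions in introns often act as enhancers or silencers of the host gene or of a neighbour. The glucocorticoid receptor (GR, encoded by *Nr3c1*) is a nuclear receptor that binds DNA on hormone exposure as a dimer at palindromic sites, and many of its known sites lie in introns, such as those of *Fkbp5* and *Zbtb16*. The motif searched for it was GNACA, 3 free bases and TGTNC, which reads the same on both strands. A second motif, ACTGTA on either strand, was searched because earlier results of these data had singled it out.

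The windows shown next reach 100 bp to each side of the summit of the strongest peak of a member, on the plus strand of mm10, with matches to the GR motif in capitals. They are shown because each lies in an intron of a protein-coding gene, carries a GR match and had weaker peaks in every GR-KO library than in any GR-con library. The *Zbtb16* match also holds ACTGTA on the reverse strand, so the motifs overlap there.
*Camta1*, chr4:151396706-151396906: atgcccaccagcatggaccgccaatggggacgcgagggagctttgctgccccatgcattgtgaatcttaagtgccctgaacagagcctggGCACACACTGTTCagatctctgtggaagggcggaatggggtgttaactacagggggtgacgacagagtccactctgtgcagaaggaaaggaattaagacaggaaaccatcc
*Pepd*, chr7:35021496-35021696: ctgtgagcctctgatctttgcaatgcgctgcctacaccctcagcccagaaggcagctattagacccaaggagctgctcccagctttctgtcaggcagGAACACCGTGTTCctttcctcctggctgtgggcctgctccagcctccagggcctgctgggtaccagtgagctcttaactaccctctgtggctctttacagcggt
*Zhx3*, chr2:160805188-160805388: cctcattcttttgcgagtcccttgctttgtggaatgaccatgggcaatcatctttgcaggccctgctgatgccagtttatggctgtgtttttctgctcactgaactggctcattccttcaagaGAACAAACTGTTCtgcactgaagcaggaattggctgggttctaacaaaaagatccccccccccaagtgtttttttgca
*Xylt1*, chr7:117658277-117658477: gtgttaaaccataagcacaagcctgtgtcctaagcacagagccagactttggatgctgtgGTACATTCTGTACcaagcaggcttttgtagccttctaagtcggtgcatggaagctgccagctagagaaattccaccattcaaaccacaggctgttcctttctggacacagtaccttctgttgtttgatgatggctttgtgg
*Klf15*, chr6:90471245-90471445: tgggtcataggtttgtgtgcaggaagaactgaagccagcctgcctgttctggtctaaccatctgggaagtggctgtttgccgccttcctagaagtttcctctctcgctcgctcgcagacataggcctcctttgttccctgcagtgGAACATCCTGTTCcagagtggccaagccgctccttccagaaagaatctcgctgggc
*Zbtb16*, chr9:48737583-48737783: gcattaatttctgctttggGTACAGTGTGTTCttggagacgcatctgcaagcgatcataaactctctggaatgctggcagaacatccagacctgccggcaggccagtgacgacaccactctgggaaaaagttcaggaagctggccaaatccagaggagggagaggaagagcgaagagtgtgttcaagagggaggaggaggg

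The next windows are members with stronger peaks in every GR-KO library than in any GR-con library, with ACTGTA or its reverse complement TACAGT in capitals. *Adamts9* and *Tnrc6a* each hold 2 copies in the window, and none of these windows holds a GR match.
*Pparg*, chr6:115469610-115469810: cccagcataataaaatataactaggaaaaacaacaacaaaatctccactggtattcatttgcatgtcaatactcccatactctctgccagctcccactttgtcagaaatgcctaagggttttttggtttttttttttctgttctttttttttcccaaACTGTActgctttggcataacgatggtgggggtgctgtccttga
*Veph1*, chr3:66181315-66181515: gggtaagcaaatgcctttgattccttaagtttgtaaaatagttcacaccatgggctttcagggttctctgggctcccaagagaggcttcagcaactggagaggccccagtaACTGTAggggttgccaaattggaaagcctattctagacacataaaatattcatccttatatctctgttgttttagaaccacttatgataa
*Alk*, chr17:72510851-72511051: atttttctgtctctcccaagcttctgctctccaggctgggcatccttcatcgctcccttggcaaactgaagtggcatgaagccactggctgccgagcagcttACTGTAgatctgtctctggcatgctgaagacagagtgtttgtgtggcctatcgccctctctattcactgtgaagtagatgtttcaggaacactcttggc
*Adamts9*, chr6:92924682-92924882: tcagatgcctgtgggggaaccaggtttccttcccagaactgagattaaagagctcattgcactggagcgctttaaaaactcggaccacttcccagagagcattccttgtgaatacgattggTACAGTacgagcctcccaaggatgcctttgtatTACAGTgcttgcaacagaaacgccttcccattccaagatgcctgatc
*Tnrc6a*, chr7:123134977-123135177: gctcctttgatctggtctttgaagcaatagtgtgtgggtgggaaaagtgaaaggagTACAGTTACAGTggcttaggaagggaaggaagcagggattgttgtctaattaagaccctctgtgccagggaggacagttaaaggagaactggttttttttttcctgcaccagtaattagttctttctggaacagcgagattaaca

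Members were mostly short and weak compared with promoters. Their median width was 423 bp, with an interquartile range of 280 to 634.75 bp and extremes of 150 and 2279 bp, against 647 bp for promoter regions and 443 bp for intergenic regions. The median GC content of their summit windows was 49.8%, against 57.2% at promoters. Per Mb of eligible sequence there were 69.7 members, compared with 28.1 intergenic and 116 promoter regions. Open regions were thus about as short in introns as between genes, and denser in introns. In all 6 libraries a peak was present at 32577 members (57.7%), and 8304 (14.7%) had a peak in only 2.

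Most members lay deep inside long genes. The median distance to any TSS was 13654 bp and the median distance to the nearest exon of the host was 7156 bp. The median host gene was 161768 bp long and the median intron holding a member 35287.5 bp. Of the members, 22159 (39.3%) lay 2 to 10 kb from a TSS, 26824 (47.5%) 10 to 50 kb, 7062 (12.5%) 50 to 200 kb and 397 (0.703%) farther. The first intron of the host held 16226 members (28.7%) and a middle intron 35881 (63.6%). Peaks present in all 6 libraries became less frequent with distance, from 59.6% of members at 2 to 10 kb to 53.4% beyond 200 kb.

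Members were unevenly spread over genes. Of 21938 protein-coding genes, 8263 held a member, with a median of 3 each. Of these genes 2504 held 1, whereas 1558 held 10 or more and together carried 36889 members (65.4%). Among genes of at least 100 kb, *Qk*, an RNA-binding protein of glia, had the most members per Mb (39 members, 333 per Mb). It was followed by *Cpe*, a carboxypeptidase of peptide hormones (31 members, 308 per Mb), *Gli3*, a transcription factor of Hedgehog signalling (77 members, 289 per Mb), the tetraspanin *Tspan7* (32 members, 287 per Mb) and *Gnao1*, a G protein subunit (45 members, 282 per Mb). In absolute number, the transcription factor *Npas3* held 177, and the neural adhesion genes *Ntm* and *Lsamp* held 174 and 151. Counts above these came from 2 long gene models. *Gm20388* (380 members) spans 4434.88 kb in GENCODE and has no RefSeq counterpart, and 230 of its members lay in the body of another RefSeq gene. *Fgfr2* (242 members) spans 2960.9 kb in GENCODE against 104.358 kb in RefSeq, and 25 of its members lay in the RefSeq body. Of all members, 55129 (97.7%) also lay in a RefSeq protein-coding gene body.

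Peak strength was compared by rank, since the lists share no scale. Within each library every region was ranked by the −log10 p of its strongest peak, regions without a peak tied lowest, and the rank was written as a percentile from 0 to 100. The median percentile of members ranged from 41.9 to 42.5 over the 6 libraries (mean 42.2), while that of intergenic regions averaged 49.9 and that of promoter regions 68.9. Members lay below intergenic regions in 6 of 6 libraries, by 7.78 ± 0.392 percentile points (SD, n = 6 libraries; exact permutation test over libraries, two-sided p = 0.031, the smallest 6 pairs allow; 0.0729 after Benjamini-Hochberg adjustment over 7 tests). Below promoters the gap was 26.8 ± 0.225 points, with the same exact permutation p of 0.031. A peak was present at 80.9% of members per library and at 84.2% of intergenic regions, a difference of −3.32 ± 0.962 points (exact permutation p = 0.031). A difference of these gaps between GR-KO and GR-con was not detectable, with exact permutation p = 0.5 for the intergenic percentile gap, 0.3 for the promoter gap and 0.3 for the share with a peak, where 3 against 3 libraries cannot go below 0.1.

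**Figure D1:**
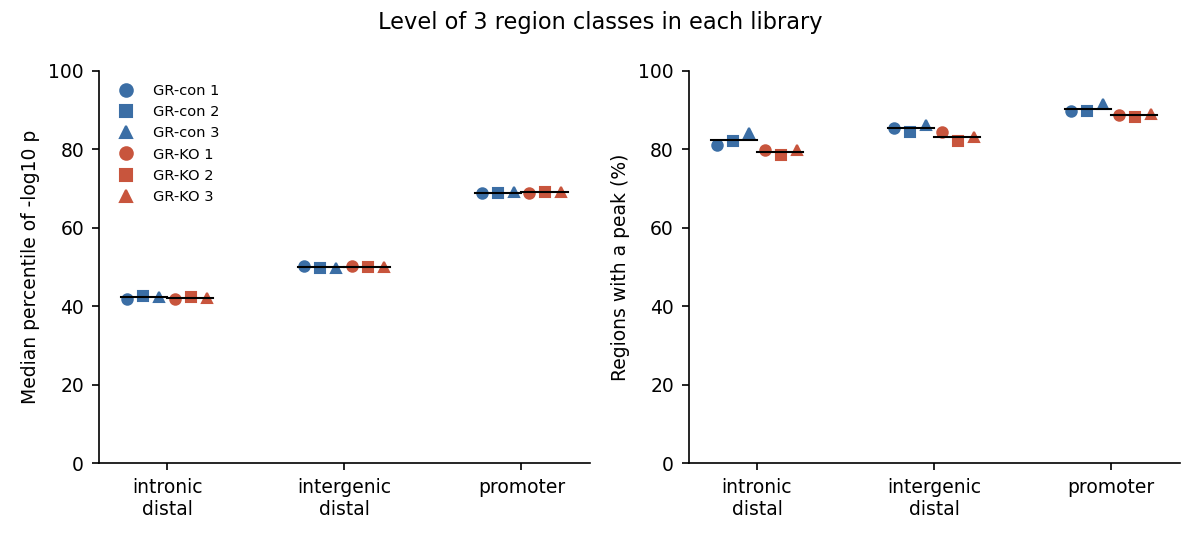
Median percentile of −log10 p (left) and percentage of regions with a peak (right) in each of 6 libraries for intronic, intergenic and promoter regions, with bars at the group means. Intronic regions sit at 41.9 to 42.5, below intergenic and promoter regions in every library.

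The share of intronic members with a peak was 82.4% ± 1.49 in GR-con and 79.4% ± 0.793 in GR-KO (SD, n = 3 each). The libraries did not overlap, with the lowest GR-con value at 81.0% and the highest GR-KO value at 79.9%. The same held for intergenic regions, at 85.3% ± 0.951 and 83.1% ± 1.15, and for promoter regions, at 90.3% ± 0.958 and 88.6% ± 0.387, so the fall was shared by the classes. The gap of members to intergenic regions in this share was −3.72 points in GR-con and −2.92 in GR-KO (exact permutation p = 0.3). Of each whole peak list, members took 33.6% ± 0.236 in GR-con and 33.2% ± 0.121 in GR-KO (exact permutation p = 0.1, the smallest possible). The difference of −0.379 points became 0.486 when a peak in all 6 libraries was required, and with a peak in 3 or more libraries it was −0.186 (exact permutation p = 0.4). The peak lists held 179462 to 198929 peaks, and read depth is unknown here. The median fold enrichment of members with a peak was 5.22 ± 0.246 in GR-con and 5.13 ± 0.111 in GR-KO.

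The labelled cell type was checked at promoters, in percentiles of −log10 p. All 22 genes of an astrocyte function list had a promoter region, at a median percentile of 91.9 in GR-con and 92.8 in GR-KO. Of the genes marking other cells, 15 of 15 neuronal genes had one (median 67.0 in GR-con and 74.5 in GR-KO, genes from 12.1 to 89.7), 9 of 12 oligodendrocyte genes (82.6 and 82.3, genes from 11.6 to 89.4), 4 of 11 microglial genes (53.5 and 62.3) and 7 of 10 vascular genes (57.6 and 60.4). Neuronal, microglial and vascular medians were thus higher in GR-KO, and their part in the differences reported here was not tested. In bulk nuclei a change in the number of nuclei with an open region and a change in its accessibility per nucleus cannot be told apart.

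GR-KO and GR-con were compared at every region by limma on normal scores of the ranks, with an adjusted p under 0.05 taken as a call. A score difference is GR-KO minus GR-con, in standard deviations of the ranks of a library. Among members, 662 (1.17%) were lower in GR-KO and 559 (0.99%) higher, while over all 140360 regions tested 1.12% were lower and 1.05% higher. Intergenic regions gave 1.36% and 1.45%, and promoter regions 0.745% and 0.656%. Members were therefore called about as often as regions at large, and their median score difference was 0.01 with 48.6% below zero (all regions 48.8%). Ranking by fold enrichment over the surroundings in place of −log10 p left 116 lower members (0.206%; all regions 0.214%) and 65 higher members (0.115%; all regions 0.11%). Of the 662 and 559 calls, 111 and 59 were also called by fold, and 640 and 558 had the same direction by fold. Some calls follow from the filter on regions: 152 of the 662 lower members had fewer than 2 peaks in GR-KO and 88 of the 559 higher members fewer than 2 in GR-con, so these passed the filter of 2 libraries through the condition where they were stronger and had to differ. For such members the values are given without a p. The other 510 lower and 471 higher members were 0.904% and 0.834% of all members, against 0.859% and 0.891% of all regions counted the same way.

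Counts of presence were set beside those of all regions in the same way. A peak in all 3 GR-con and no GR-KO library was found at 765 members (1.36%; all regions 1.19%), and the converse at 380 members (0.673%; all regions 0.628%). With lists cut to equal length these counts of members were 631 and 438. All 3 GR-KO percentiles lay below all 3 GR-con percentiles at 4973 members (8.81%; all regions 8.74%) and above them at 6461 members (11.4%; all regions 11.4%).

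Called members were wider and stronger than the rest. Lower members had a median width of 659 bp and higher members of 656 bp, against 419 bp for members not called. Lower members fell from a median percentile of 74.8 in GR-con to 54.9 in GR-KO (median score difference −0.56), and higher members rose from 66.6 to 79.1 (median 0.40). Among members with a mean percentile up to 25, 23 (0.121%) were lower and 41 (0.216%) higher. From 75 to 90 these numbers were 175 (2.59%) and 193 (2.86%), and above 90 they were 47 (2.21%) and 57 (2.68%). Over all regions of any strength 1.12% were lower and 1.05% higher. Calls were thus less frequent among the weakest members than among strong ones. Of the members up to 25, 1.30% had a peak in all 6 libraries, and regions without a peak tie lowest. Of the 8304 members with a peak in only 2 libraries, 0 were called. By distance to a TSS, 1.23% of members at 2 to 10 kb were lower and 0.948% higher, against 1.20% and 1.23% at 50 to 200 kb. Beyond 200 kb, 9 of 397 members (2.27%) were lower and 3 (0.756%) higher, which rests on few regions. All regions, of which 1.12% were lower and 1.05% higher, were not binned by distance or strength. Among the 3 GR-con libraries, GR-con 3 had the lowest percentile at 455 of the 662 lower members, with medians there of 76.4, 76.9 and 71.9 for GR-con 1, 2 and 3. Leaving out 1 library kept the direction of all 662 and 559 calls, and 123 lower and 85 higher members stayed called whichever library was left out.

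*Nr3c1*, the gene with the floxed alleles, held 12 members. One of them (chr18:39428001-39428701, intron 3 of 8, 266 bp from an exon) had −log10 p values of 126, 135 and 106 in the GR-con libraries and 20.8, 11.2 and 18.6 in the GR-KO libraries. Its score fell by 0.93 (SE 0.0887, limma adjusted p = 3.4e-06), and its fold enrichment went from 17.4, 17.4 and 14.3 to 6.68, 4.73 and 6.36. Another (chr18:39460905-39461162, intron 2) had no peak in any GR-con library and values of 20.9, 13.9 and 22.6 in GR-KO, and it passed the filter through GR-KO alone. The remaining 10 members of the gene did not pass the test. Peaks were thus still present in introns of *Nr3c1* in the GR-KO libraries, and 1 of them was strongly weakened. The labels do not give the floxed segment, so loss of DNA and loss of accessibility cannot be told apart there.

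The 10 lower members of smallest p kept a peak in every GR-KO library, each weaker than in any GR-con library. In *Arhgef28*, a guanine nucleotide exchange factor, the member at chr13:98156416-98157384 (intron 1 of 34, 19087 bp from a TSS) had −log10 p values of 223, 199 and 135 in GR-con and 13.8, 19.7 and 18.6 in GR-KO. Its percentile went from 88.5 ± 3.43 to 52.2 ± 3.77 (SD, n = 3 each; score difference −1.16, SE 0.0841, limma adjusted p = 2.0e-07), and the fold ranks passed too (adjusted p = 0.0087). In *Camta1*, a calmodulin-binding transcription activator, the member at chr4:151396166-151397169 (intron 5 of 24) had values of 153, 146 and 148 in GR-con and 23.6, 18.8 and 16.0 in GR-KO (score difference −0.97, SE 0.0734, adjusted p = 2.8e-07). All 3 control libraries sat close together there, and its GR match lies 4 bp from the summit in the sequence shown above.

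In *Xylt1*, which starts the sugar chains of proteoglycans, the member at chr7:117657834-117659031 (intron 11 of 11, 118361 bp from a TSS) had values of 220, 171 and 136 in GR-con and 16.3, 28.4 and 16.8 in GR-KO (score difference −1.06, adjusted p = 6.2e-07; by fold adjusted p = 0.010). In *Pepd*, a dipeptidase that releases proline, the member at chr7:35020997-35021970 (intron 10 of 14) had 296, 321 and 165 in GR-con and 21.1, 35.7 and 27.8 in GR-KO (score difference −1.18, adjusted p = 4.9e-07). In *Zhx3*, a zinc finger and homeobox repressor, the member at chr2:160804830-160805629 (intron 2 of 2) had 265, 279 and 193 against 28.8, 10.2 and 31.8 (score difference −1.27, adjusted p = 6.2e-07; by fold adjusted p = 0.064). These members, with *Camta1*, are the 4 of the 10 that hold a GR match, and control and knockout libraries did not overlap at any of them.

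Members of the same group without a GR match had score differences in the same range. In *Rin2*, a Rab5 regulator of endocytosis, the member at chr2:145848920-145849855 had 208, 233 and 106 in GR-con and 9.91, 16.8 and 11.2 in GR-KO (score difference −1.29). In *Atp6v0e*, a subunit of the vacuolar proton pump, the member at chr17:26691100-26691488 had 218, 258 and 125 against 24.9, 21.2 and 16.5 (score difference −1.11). The member at chr8:123786181-123786854, inside the long model *Gm20388* and in no RefSeq gene body, had 244, 265 and 157 against 15.1, 29.2 and 10.3 (score difference −1.31). GR-con 3 was the lowest control library at each of these 3, and still far above every GR-KO library.

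At the other 2 members the peaks stayed strong in GR-KO. In *Asic2*, an acid-sensing ion channel, the member at chr11:81134872-81135688 had 459, 428 and 331 in GR-con and 97.7, 114 and 82.6 in GR-KO (score difference −1.05, adjusted p = 2.0e-07). In *Cntn1*, a contactin that joins axons and glia, the member at chr15:92112109-92113044 had 374, 344 and 272 against 88.4, 113 and 79.2 (score difference −0.83, adjusted p = 7.3e-07). Neither passed when fold was ranked (adjusted p = 0.108 for each), and their fold enrichment over the surroundings moved from 23.1, 23.5 and 21.6 to 18.4, 20.6 and 16.8 in *Asic2*.

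The 9 higher members described next, which are among the 10 of smallest p, were already open in GR-con, with *Veph1* as the exception. In *Pparg*, a nuclear receptor of fat metabolism, the member at chr6:115469284-115470308 (intron 6 of 7, 4806 bp from a TSS) had −log10 p values of 28.7, 31.1 and 29.9 in GR-con and 131, 119 and 121 in GR-KO. Its percentile went from 59.98 ± 0.740 to 84.2 ± 0.616 (SD, n = 3 each; score difference 0.75, SE 0.0686, limma adjusted p = 2.2e-06; by fold adjusted p = 0.080). The spread within each condition was small there, and every knockout value lay far above every control value.

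In *Veph1*, which encodes a pleckstrin homology domain protein, the member at chr3:66180845-66181906 (intron 6 of 13) had a peak of 3.81 in GR-con 1 only and peaks of 86.7, 94.3 and 49.2 in GR-KO, and it passed the filter through GR-KO. In *Alk*, a receptor tyrosine kinase, the member at chr17:72510587-72511567 (intron 1 of 28) had 44.7, 37.8 and 36.6 in GR-con and 137, 111 and 131 in GR-KO (score difference 0.63; by fold adjusted p = 0.023). In *Tnrc6a*, a scaffold of microRNA silencing, the member at chr7:123134869-123135410 had 34.7, 36.3 and 26.4 against 103, 121 and 108 (score difference 0.65). Each of these holds ACTGTA in the sequence shown above, and conditions did not overlap at any of them.

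The other 5 rose by smaller factors from a higher start. In *Rgs9*, a regulator of G protein signalling, the member at chr11:109277997-109278829 had 100, 84.5 and 105 in GR-con and 218, 221 and 242 in GR-KO. In *Gabrg3*, a GABA-A receptor subunit, the member at chr7:57213960-57214850 had 100, 80.8 and 77.4 against 209, 231 and 197. In *Hmga2*, an architectural chromatin protein, the member at chr10:120421918-120422590 had 116, 90.6 and 85.2 against 268, 204 and 256. The score differences of these 3 lay between 0.56 and 0.61, and the lowest knockout value exceeded the highest control value in each.

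In *Arhgef3*, another guanine nucleotide exchange factor, the member at chr14:27166460-27167372 had 309, 347 and 306 against 591, 496 and 516 (score difference 0.72). In *Zswim5* the member at chr4:116928058-116928670 had 56.6, 47.6 and 45.1 against 148, 126 and 151 (score difference 0.59). *Zswim5* was the only one of these 9 without ACTGTA in its window, and none of the 9 held a GR match.

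**Figure D2:**
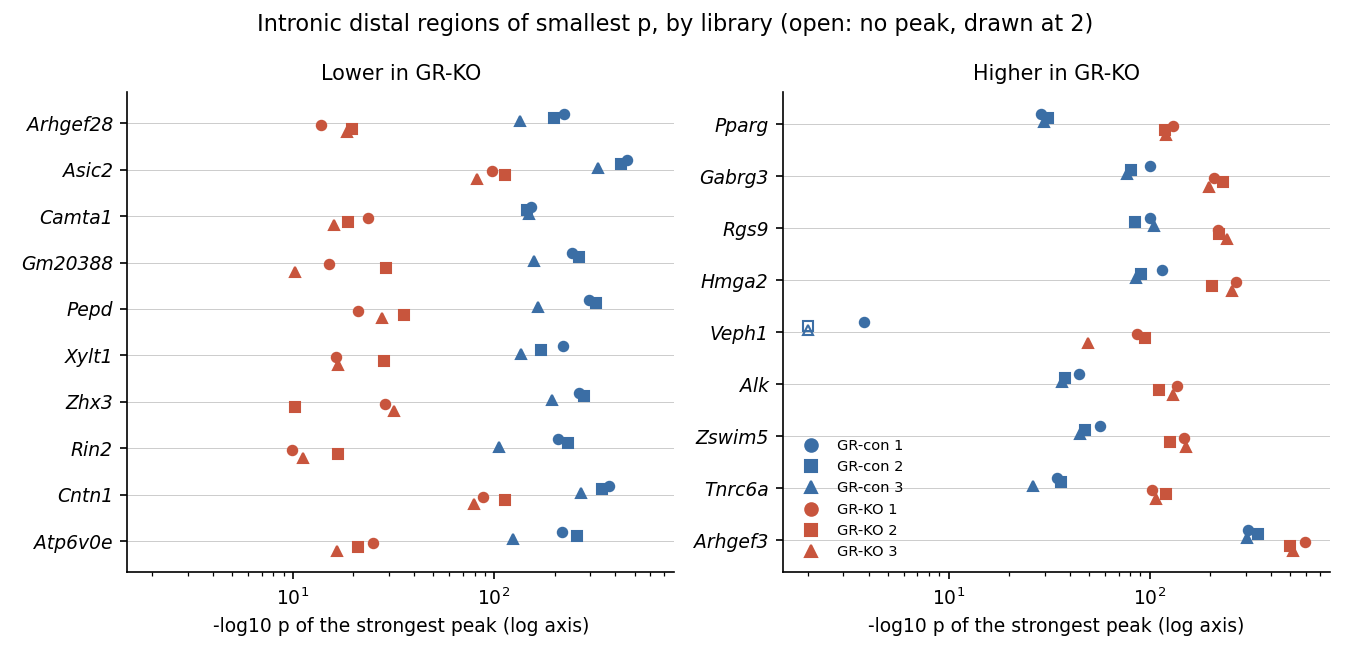
The −log10 p (log axis) of the strongest peak in each of 6 libraries at the 10 lower intronic members of smallest p and at 9 of the 10 higher ones, labelled by host gene, with open symbols at 2 where a library had no peak. GR-con and GR-KO points do not overlap at any of the 19 members, which follows from their choice by p.

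Some members had peaks in 1 condition alone. The strongest of those open only in GR-con lay in *Mettl21e*, a methyltransferase gene, at chr1:44216343-44217058 (−log10 p 83.1, 56.3 and 43.6), in the kinase gene *Dclk2* at chr3:86810844-86811255 (89.9, 85.2 and 31.4), and in *Lrrc8c*, a subunit of volume-regulated anion channels, at chr5:105553475-105554081 (63.0, 97.8 and 31.6). Of those open only in GR-KO, the strongest lay in *Gabra4*, a GABA-A receptor subunit, at chr5:71590203-71590873 (34.6, 17.0 and 31.3), in *Cyp4f13*, a cytochrome, at chr17:32934971-32935285 (31.5, 27.4 and 16.0), and in *Arid5b*, a chromatin regulator, at chr10:68193017-68193277 (43.4, 18.5 and 16.4). Among these 6 the control-only peaks reached 97.8 and the knockout-only peaks 43.4. The *Dclk2* member holds a GR match, and all 3 of the knockout-only members hold ACTGTA.

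Of the 5 strongest members, 4 are described here, and none of the 4 passed the test. They lay in *Galnt16* (chr12:80567250-80568014), *Nrxn3* (chr12:90274208-90275304), *Maml2* (chr9:13681218-13682110) and *Etv5* (chr16:22428737-22429679), with percentiles of 99.6 to 99.9 in both conditions. In *Etv5*, a transcription factor of growth factor signalling, values were 572, 628 and 561 in GR-con and 663, 667 and 566 in GR-KO (score difference 0.12, SE 0.181, adjusted p = 0.832). In *Galnt16*, a glycosyltransferase, GR-con spanned 531 to 671 and GR-KO 620 to 754. The conditions overlapped at each of these 4 members.

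The GR motif was more frequent at lower members and ACTGTA at higher members. In the fit of −log10 p ranks over all 6 libraries each was at a minority of them. The GR motif was found at 433 members (0.767%), against 0.694% of intergenic, 0.452% of promoter and 0.669% of all regions. It was found at 111 of the 662 lower members (16.8%, exact 95% interval 14.0 to 19.8), at 0 of the 559 higher members and at 322 of the 55221 members not called (0.583%). By fold, 25 of the 116 lower members (21.6%) held it and 1 of the 65 higher. It was present at 46 of the 765 control-only members (6.01%) and at 0 of the 380 knockout-only members. The motif had been noted at weakened sites in earlier results of these data, so these shares describe the members and are no independent test. Windows centred on the midpoint of the region, which do not use the strongest peak, gave 80 of 662 (12.1%) against 0.500% of members not called. Of the 510 lower members with 2 or more peaks in GR-KO, 81 (15.9%) held the motif.

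Read from the side of the motif, the 433 members with a GR match were weaker as a group in GR-KO. Their median percentile was 48.7, 51.3 and 44.8 in GR-con 1, 2 and 3 and 29.0, 28.2 and 29.9 in GR-KO 1, 2 and 3, and the share with a peak went from 91.5%, 90.8% and 91.0% to 64.7%, 63.7% and 69.3%. The other 56009 members lay between 41.8 and 42.5 in every library. The median score difference was −0.41 for members with a match, with 86.6% below zero, against 0.01 and 48.3% for those without. Of the 433, 111 (25.6%) were lower and 0 higher, against 0.984% and 0.998% of members without a match. Over all regions 1.12% were lower and 1.05% higher. Part of the fall is built in, since 46 of the 433 (10.6%; 1.28% of the others) had a peak in every GR-con and no GR-KO library. Those 46 passed the filter through GR-con and had to differ. Of the 111, 81 had 2 or more peaks in GR-KO.

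**Figure D3:**
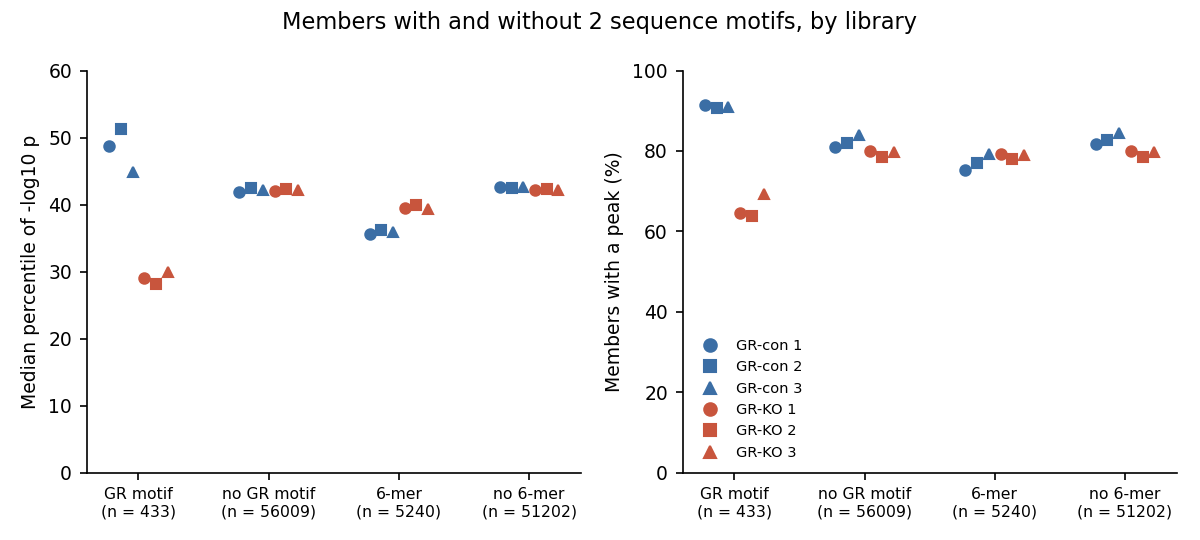
Median percentile and percentage with a peak, per library, of intronic members grouped by motif. Members with the GR motif drop from 44.8 to 51.3 in GR-con to 28.2 to 29.9 in GR-KO, and members with ACTGTA lie at 35.5 to 36.2 in GR-con and 39.3 to 40.0 in GR-KO.

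The matches of lower members lay closer to the summit and nearer to the full palindrome. The median distance from summit to match was 28 bp in lower members and 42.5 bp in members not called, and 46.0% and 34.3% of matches lay within 25 bp. The match read GAACA on the left and TGTTC on the right in 25 of 113 matches of lower members (22.1%) and in 31 of 324 matches of members not called (9.57%). *Pepd*, *Zhx3* and *Klf15* in the sequences above read this way on both sides.

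ACTGTA showed the opposite pattern, at more members and with a smaller shift. It was found at 5240 members (9.28%; all regions 7.95%), at 195 of the 559 higher members (34.9%, exact 95% interval 30.9 to 39.0), at 45 of the 662 lower members (6.80%) and at 9.05% of members not called. By fold, 36 of the 65 higher members (55.4%) held it, and 90 of the 380 knockout-only members (23.7%) against 53 of the 765 control-only members (6.93%). Of the 5240, 195 (3.72%) were higher, against 0.711% of members without the 6-mer and 1.05% of all regions. The median score difference of the 5240 was 0.07. The median percentile of these members was 35.5, 36.2 and 36.0 in the GR-con libraries and 39.4, 40.0 and 39.3 in the GR-KO libraries, so the 2 conditions did not overlap. Members without the 6-mer, which did not overlap either, lay at 42.5 to 42.7 in GR-con and 42.1 to 42.3 in GR-KO. The share of ACTGTA members with a peak overlapped between conditions, at 75.3%, 77.0% and 79.2% in GR-con and 79.4%, 78.0% and 78.9% in GR-KO. Matches lay 35.5 bp from the summit in higher members and 50.5 bp in members not called, and 29 of the 195 held 2 or more copies. Midpoint windows gave 167 of 559 (29.9%) against 9.47%. Of the 471 higher members with 2 or more peaks in GR-con, 163 (34.6%) held it. The 6-mer was chosen from earlier results of these data, and its shares are no independent evidence.

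**Figure D4:**
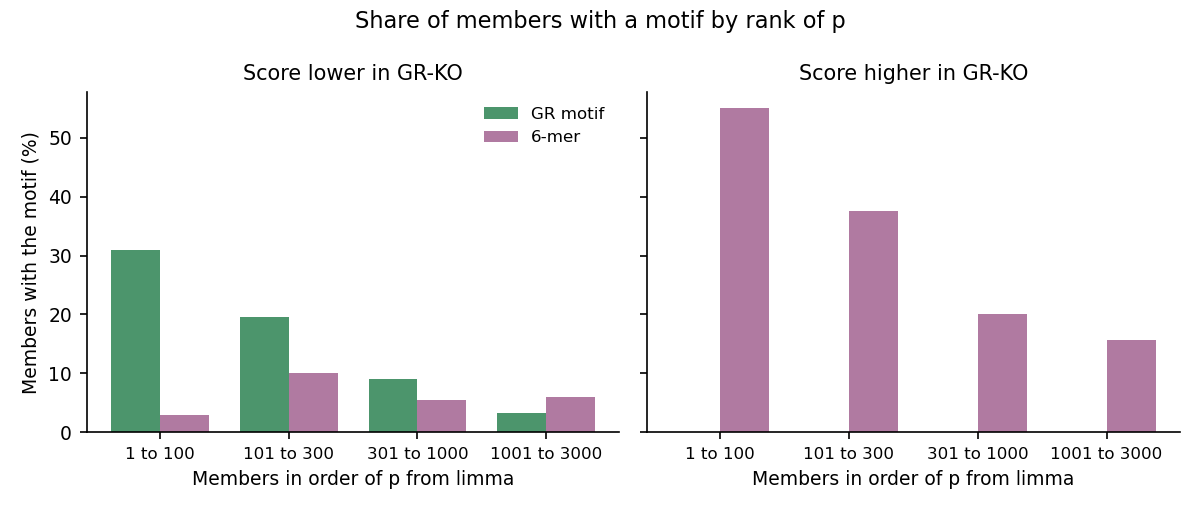
Percentage of intronic members with the GR motif and with ACTGTA by rank of p. Members with a score lower (left) or higher (right) in GR-KO were ranked, whether called or not. The GR motif falls on the left from 31% at ranks 1 to 100 to 3.3% at ranks 1001 to 3000, and ACTGTA on the right from 55% to 15.75%.

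The shares of both motifs declined with rank. Among members ranked by p toward lower, 31% of the 100 smallest held the GR motif, 19.5% of ranks 101 to 300, 9% of ranks 301 to 1000 and 3.3% of ranks 1001 to 3000. Toward higher, ACTGTA went from 55% to 37.5%, 20.1% and 15.75% over the same ranks, and 1 GR match was found among the 3000.

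In percentage points, the other 11 motifs differed less between lower and higher members than these 2. The short NFI motif TTGGCA, of the nuclear factor I family of glia, was found at 23.8% of members, at 37.2% of higher members, at 24.9% of lower members and at 23.7% of those not called. The LHX motif TAATTA was at 10.6% of higher members against 7.19%, and the RFX motif GTTGCC at 12.9% against 9.87%. The CTCF motif (CC, 3 bases, AGG, 1 base, GGC), of the insulator protein, was at 4.17% of members and 6.86% of intergenic regions, and at 1.81% of lower and 0.716% of higher members. When fold was ranked, CTCF was at 6.03% of the 116 lower and 3.08% of the 65 higher members. LHX was then at 3.08% of the higher members, and the short NFI motif (38.5%) and RFX (16.9%) stayed more frequent there. The ETS motif CCGGAAG was at 0.912% of members against 6.88% of promoters. Shares of members were 10.9% for SOX (ACAATG), 7.12% for AP-1 (TGANTCA), 3.12% for TEAD (ACATTCC), 16.9% and 15.9% for the E-boxes CAGCTG and CATCTG, and 0.0656% for the full NFI site (TTGGC, 5 bases, GCCAA), which can contain the short one.

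Glucocorticoid-inducible genes were described as a list of 19, of which 10 held 56 members. Of these, 6 (10.7%) were lower and 0 higher, 6 were control-only, and the median score difference was −0.13 with 39 of 56 below zero. Over all regions 1.12% were lower, 1.05% higher and 1.19% control-only. The 6 lay in *Klf15*, *Fkbp5* and *Zbtb16*. *Klf15*, a transcription factor of metabolism, had −log10 p values of 204, 193 and 129 in GR-con and 50.3, 56.5 and 42.1 in GR-KO at chr6:90470898-90471934 (intron 2 of 2; score difference −0.64, limma adjusted p = 2.7e-05; by fold adjusted p = 0.193). In *Fkbp5*, a chaperone that restrains GR, a member at chr17:28463825-28464574 (intron 4 of 13) had 25.4, 23.4 and 15.4 in GR-con and a single peak of 5.47 in GR-KO 3, and one at chr17:28411442-28411930 (intron 10 of 13) had 8.74, 14.1 and 9.65 and no peak in GR-KO. Both are among the 6 and passed the filter through GR-con, which leaves 4 lower members (7.14%; 0.859% of all regions). Neither *Fkbp5* window held the GR motif as searched.

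*Zbtb16*, a zinc finger repressor, had 3 lower members in introns 2 and 3. At chr9:48737253-48737938 (intron 3 of 6) values were 316, 343 and 209 in GR-con and 86.6, 35.6 and 72.8 in GR-KO (score difference −0.91, SE 0.0937, adjusted p = 8.3e-06; by fold adjusted p = 0.172). At chr9:48749157-48749704 (intron 2) they were 175, 162 and 95.8 against 28.4, 34.9 and 19.5 (adjusted p = 2.6e-05). At chr9:48723375-48724193 (intron 3) they were 56.0, 38.3 and 28.0 against 10.7, no peak and 4.30 (adjusted p = 0.010). All 3 were weaker in each GR-KO library than in any GR-con library, and the one at chr9:48737253-48737938 carries the GR match shown above.

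A list of 10 genes was taken from those the paper names as regulated by GR, of which its text gives *Zbtb16*, *Cntn1*, *Fbln1*, *Prom1* and *Scrg1* as lower after GR loss and names the other 5 without a direction. It is a choice made on mice of the same genotypes and not independent of these libraries. Of these, 9 held 89 members, of which 7 (7.87%) were lower and 1 (1.12%) higher, with a median score difference of −0.19 and 60 of 89 below zero, against 1.12% and 1.05% of all regions. Without members that passed the filter through 1 condition, 6 were lower and 0 higher. The lower ones lay in *Zbtb16* (3), *Cntn1* (3) and *Etnppl* (1). In *Etnppl*, a lipid-metabolising enzyme of astrocytes, the member at chr3:130633630-130634686 (intron 12 of 12, 391 bp from an exon) had −log10 p values of 445, 521 and 306 in GR-con and 83.4, 100 and 77.0 in GR-KO (score difference −1.18, SE 0.103, adjusted p = 1.2e-06). Its fold over the surroundings was 15.5, 16.2 and 15.4 in GR-con and 14.3, 15.7 and 14.9 in GR-KO (score difference by fold −0.05, adjusted p = 0.794). The peak was therefore still present in GR-KO with a smaller −log10 p, while its ratio to the surroundings moved by less than the test could call. In *Fam107a*, an actin-linked stress gene, a weak member at chr14:8306430-8306611 had no peak in GR-con and 10.0, 10.0 and 8.66 in GR-KO, and it passed the filter through GR-KO alone.

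The members of smallest p in the remaining genes did not pass. Adjusted p-values were 0.0886 in *Scrg1*, 0.157 in *Ezr* and 0.188 in *Fbln1*, and the members in *Aldh1a1* and *Prom1* had passed the filter through GR-con. In *Ezr*, which links membrane to actin in fine astrocyte processes, values were 25.0, 33.6 and 25.9 in GR-con and 48.5, 38.6 and 47.6 in GR-KO, without overlap. In *Aldh1a1*, a retinoic acid enzyme, a weak member had 9.64, 6.14 and 5.37 in GR-con and no peak in GR-KO.

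Of 8 genes that the paper names as repressed by GR, all 8 held members, 52 in all. Of these 3 (5.77%) were lower and 2 (3.85%) higher, against 1.12% and 1.05% of all regions, with a median score difference of 0.07 and 18 of 52 below zero. *Adamts9*, a matrix metalloprotease, held 4 of the 5 called members. The higher one at chr6:92924299-92925048 (intron 3 of 39) had 14.1, 17.8 and 18.2 in GR-con and 67.5, 69.0 and 65.4 in GR-KO (score difference 0.70, SE 0.0926, adjusted p = 1.3e-04; by fold 0.026) and is the one whose 2 copies of ACTGTA are shown above. Of its 3 lower ones that of smallest p, at chr6:92787146-92787804 (intron 37 of 39), went from 221, 164 and 154 to 71.2, 61.7 and 74.2 (adjusted p = 1.5e-04), and its window holds a GR match. One gene thus held members that moved in opposite directions.

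*Mmp14*, a membrane metalloprotease, had a higher member at chr14:54443227-54443523 with 5.44, 6.47 and 12.2 in GR-con and 20.8, 33.0 and 28.6 in GR-KO (adjusted p = 0.026), although its midpoint lay in no RefSeq gene body. In the other 6 genes no member passed, with an adjusted p of the best member of 0.147 in *Adamts16*, 0.177 in *Tnc*, 0.445 in *Adamts12* and 0.841 in *Vcan*. The best members in *Adamts5* and *Mmp2* had a peak in 1 GR-con library and passed the filter through GR-KO.

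**Figure D5:**
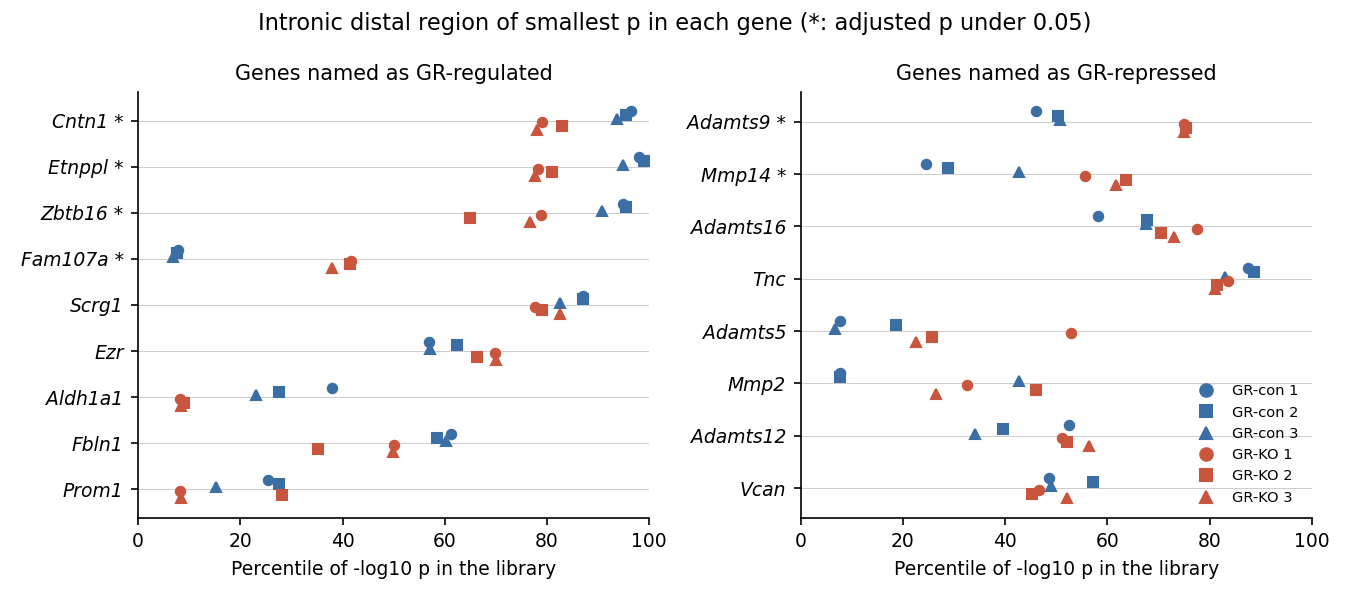
Percentile of −log10 p in each of 6 libraries at the intronic member of smallest p in 9 genes the paper names as regulated by GR (left) and 8 it names as repressed by GR (right), with an asterisk at called members, of which *Fam107a* passed the filter through GR-KO alone. *Etnppl*, *Cntn1* and *Zbtb16* are lower in GR-KO, and *Fam107a*, *Adamts9* and *Mmp14* higher.

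Of 22 genes of general astrocyte function, 14 held 273 members, with 3 lower (1.10%), 3 higher (1.10%) and a median score difference of 0.01, near the 1.12% and 1.05% of all regions. The calls lay in 5 genes. In the glutamate transporter gene *Slc1a3*, a strong member at chr15:8659383-8660697 rose from 250, 258 and 239 to 329, 322 and 320 (adjusted p = 0.042). In *Slc1a2*, the other glial glutamate transporter, a member at chr2:102774101-102774677 rose from 14.0, 14.9 and 20.0 to 50.5, 38.8 and 29.7 (adjusted p = 0.033). In *Aldh1l1*, a folate enzyme that marks astrocytes, a member at chr6:90509084-90509406 with a GR match fell from 50.0, 41.4 and 24.2 to a single peak of 8.95 in GR-KO 1. That member lay in a GENCODE transcript outside the RefSeq body. The GABA transporter gene *Slc6a11* had 1 call in each direction, at chr6:114199013-114199751 (175, 167 and 163 against 99.3, 115 and 95.3) and at chr6:114216667-114217740 (97.4, 108 and 69.9 against 135, 128 and 159). In *Gpc5*, a glypican, a weak member at chr14:115406550-115406946 fell from 25.4, 13.5 and 26.1 to a single peak of 8.21 in GR-KO 2. Both this member and that in *Aldh1l1* passed the filter through GR-con. None of these 6 passed when ranked by fold.

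Glial transcription factor genes held many members. Of 23 genes, 16 held 991 members, with 10 lower (1.01%), 9 higher (0.908%) and a median score difference of 0.02. *Zbtb20*, a zinc finger transcriptional repressor, had 2 higher members and 1 lower, the lower one at chr16:43537338-43537857 (69.5, 90.9 and 35.2 against a single peak of 8.33) and, in the same intron, one of the higher ones at chr16:43546497-43548240 (20.1, 22.2 and 27.4 against 55.0, 108 and 61.8). *Nfib*, of the nuclear factor I family, had a lower member at chr4:82458702-82459542 (153, 183 and 159 against 71.8, 64.8 and 81.2, adjusted p = 4.0e-04). *Sox5* had 2 higher members, both with ACTGTA, of which that at chr6:144312689-144313584 had 36.8, 40.0 and 39.2 against 119, 182 and 90.1 (adjusted p = 9.7e-05). *Rorb*, a nuclear receptor, had 2 higher members, and *Gli3* a lower one. *Npas3* had 2 lower and 1 higher, and the Hedgehog factor *Gli2* 1 of each. Both shares of the list lay near those over all regions (1.12% lower and 1.05% higher).

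*Rora*, a nuclear receptor of the circadian clock in the same list, held 127 members, of which 4 were lower and 0 higher. Over all regions 1.12% were lower and 1.05% higher. The member at chr9:68679367-68680638 (intron 1 of 10), with a GR match, had 353, 421 and 271 in GR-con and 179, 170 and 158 in GR-KO (score difference −0.54, adjusted p = 3.1e-04). By fold its difference was −0.01 (adjusted p = 0.985), with values of 13.8, 15.7 and 13.4 against 14.2, 14.4 and 13.5. As in *Etnppl*, the conditions separated by −log10 p and overlapped by fold.

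Receptor genes had calls in both directions. Of 19 growth factor and transmitter receptor genes, 18 held 616 members, with 12 lower (1.95%) and 10 higher (1.62%), against 1.12% and 1.05% of all regions. The long *Fgfr2* model held 242 of these members, 2 of the lower and 6 of the higher calls, and RefSeq places these 8 calls in *Tacc2*, *Htra1*, *Dmbt1*, *Cpxm2*, *Lhpp* or no gene, and none in *Fgfr2*. Most higher calls of the list therefore did not lie in a receptor gene by RefSeq. Without that model 10 of 374 members were lower (2.67%), of which 3 passed the filter through GR-con, and 4 were higher (1.07%). *Egfr* had a lower member at chr11:16798136-16798723 (52.9, 83.7 and 37.7 against 6.73, 11.7 and 5.13, adjusted p = 9.8e-04) and *Fgfr3* one at chr5:33726712-33727333 (103, 142 and 82.2 against 30.9, 31.6 and 45.5). *Ntrk2*, the BDNF receptor, had 3 lower and 1 higher, and *Lifr*, a cytokine receptor that drives astrocyte formation, 2 lower. In *Lifr* the member at chr15:7117942-7118327 had 48.5, 49.7 and 57.4 against 10.2, 8.01 and 10.3 (adjusted p = 8.3e-04). *Grm3*, a metabotropic glutamate receptor, had 2 higher members, at chr5:9570769-9571354 (206, 188 and 139 against 276, 301 and 246) and chr5:9670855-9671551. The remaining calls of the list lay in *Notch1*, *Notch2* and *Bmpr1a*.

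Of 27 synapse and adhesion genes, 26 held 1471 members, with 19 lower (1.29%) and 13 higher (0.884%), a median score difference of 0.01 and 24 control-only members against 9 knockout-only. Over all regions 1.12% were lower and 1.05% higher, with 1669 control-only regions against 881 knockout-only, so the list followed the regions at large in these counts. *Magi2*, a synaptic scaffold, had 4 lower members in intron 6, 2 of which had differences above zero when fold was ranked (0.044 and 0.055). One of the 4, at chr5:20286318-20286669 with a GR match, went from 41.5, 42.0 and 27.5 to a single peak of 3.86 and passed the filter through GR-con. *Lrp1b*, a lipoprotein receptor, had a lower member at chr2:41032289-41032641 (67.6, 78.9 and 41.4 against 10.7, 7.51 and 8.81; adjusted p = 3.1e-04, by fold 0.026). *Ptprt*, a receptor phosphatase, held 1 in each direction that both passed by fold, at chr2:161561505-161561958 (19.7, 15.2 and 18.7 rising to 64.5, 66.4 and 58.5) and at chr2:161794639-161795736 with a GR match (112, 96.2 and 80.9 falling to 28.4, 29.5 and 33.7).

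Genes marking other cells held few members. Of 108 members in neuronal marker genes 0 were lower and 3 higher, of 25 in oligodendrocyte genes 1 was lower, of 32 in vascular genes 1 was higher, and of 16 in microglial genes none was called. Over all regions 1.12% were lower and 1.05% higher, and with so few members these counts cannot be set apart from that share. The neuronal ones included *Syt1*, a synaptic vesicle protein, at chr10:108692716-108693349 (6.17, 4.91 and 11.4 against 76.6, 49.3 and 56.1; score difference 1.15, adjusted p = 1.0e-04), which holds ACTGTA. The oligodendrocyte one lay in *Mbp*, a myelin protein (95.6, 107 and 100 against 51.9, 68.4 and 45.8), and the vascular one in *Pdgfrb* (no peak against 8.23, 10.3 and 9.24).

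Neighbouring called members more often shared a direction than not. Of 45 pairs of adjacent called members within 10 kb, 31 (68.9%) had the same direction, and of 157 pairs within 50 kb, 117 (74.5%) did. Pairs and genes were not counted in this way over all regions, so whether this is particular to members is unknown. By gene, 923 held a called member, 531 a lower and 474 a higher one. Of the 202 genes with 2 or more, 66 had lower ones alone, 54 higher ones alone and 82 both. After the 2 long models, *Trpm3*, a cation channel, held the most calls (6 lower and 1 higher of 54 members), followed by *Asic2* (5 lower and 1 higher of 82) and *Lsamp* (3 lower and 2 higher of 151), where 1.12% of all regions were lower and 1.05% higher. *Lsamp* was not alone at that number of calls, which *Csmd1* also held (3 lower and 2 higher of 89). Genes with several called members thus included both uniform and mixed ones, and the mixed ones were the smaller part.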

How the data were processed

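ATAC-seq peak lists from 3 GR-con and 3 GR-KO libraries were analysed. The authors ran the ENCODE ATAC-seq pipeline with a peak p threshold of 0.01, calling peaks in each library separately, and the labels name mm10. The deposited columns are a capped score (not used), a fold enrichment (the ratio of a summit to its surroundings in the same library), and −log10 values of p and q. The edgeR test of the study's methods needs read counts, which were not used here, so read depth is unknown and no counting floor is given. Replicates are separate pools of mice, and p-values measure only the spread between these libraries.

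Peaks were merged and classed by GENCODE vM21 genes in Python 3.11.15. The host gene was the longest protein-coding gene over the midpoint. Within-library ranks became normal scores, which limma 3.58.1 (R 4.3.3) compared between groups over all 140360 regions, with a variance trend and no block, and p-values were adjusted by Benjamini-Hochberg. Class levels were compared by exact permutation over libraries (scipy 1.17.1). Exact 95% intervals (Clopper-Pearson) of motif shares cover counting error over regions only, and regions are not replicates. The scripts were tested on simulated data.

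The members, the 11 gene lists, the 13 motifs and the tests were chosen with earlier results of these data known. Regions named were the 10 members of smallest p in each direction, the 3 strongest single-condition members in each direction, the 5 strongest members, every called member in a listed gene (of which examples are given), the member of smallest p in each gene of the lists of GR-regulated and GR-repressed genes named in the paper, and the genes with the most members, members per Mb or calls. Of the regions this rule names, 2 are not reported here. The motif windows are centred on the strongest peak, which for a called member usually belongs to the condition where it is stronger. Sequences were read from the GRCm38 (mm10) reference. Alternatives were fold ranks, peaks with q under 0.01, lists cut to equal length, an overlap of 100 bp, peaks in 3 or more or in all 6 libraries, autosomes only, a distance of 5 kb, no exonic base, a replicate block, a robust fit, no variance trend, an adjusted p limit of 0.01 and leaving out each library. Members also in a RefSeq gene body, calls with 2 or more peaks in the weaker condition and other settings of the motif shares were added after seeing the data.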

Additional observations from a re-analysis of the deposited data

How the results depend on the processing

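Numbers of called members depended on the fit. Against 662 lower and 559 higher members, ranking by fold gave 116 and 65, an adjusted p limit of 0.01 gave 287 and 191, and a fit without the variance trend gave 325 higher members (498 lower, within 1.5 times). Leaving out 1 library gave 132 to 369 lower and 126 to 196 higher members, namely 132 and 126 without GR-con 1, 145 and 168 without GR-con 2, 334 and 196 without GR-con 3, 369 and 165 without GR-KO 1, 296 and 134 without GR-KO 2 and 354 and 174 without GR-KO 3. Fewer libraries enter each of these fits. The q-value limit, equal list lengths, the wider overlap, 3 or more libraries, all 6 libraries, autosomes, 5 kb, no exonic base, the robust fit and, added after seeing the data, RefSeq gene bodies and calls with 2 or more peaks in the weaker condition (510 lower and 471 higher) stayed within 1.5 times. Requiring a peak in all 6 libraries left 32577 members. Control-only members numbered 1222 to 1612 and knockout-only members 634 to 960 when 1 library was left out, since 5 lists set fewer conditions. Same-numbered libraries deviated together weakly (correlations of 0.035, −0.0017 and 0.029 over regions), so the numbers do not pair them. With a replicate block 365 lower and 255 higher members were called.

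With 5 libraries the percentile gap ranged from −7.90 to −7.69 to intergenic and from −26.8 to −26.7 to promoter regions, and the gap in share with a peak from −3.54 to −3.10, where the exact permutation test of 5 pairs cannot go below p = 0.0625. The GR-KO minus GR-con difference in the share of list peaks in members, −0.379 points, ranged from −0.454 to −0.243 with 1 library left out. It became 0.486 with a peak in all 6 libraries required. The cause was not tested. Differences near zero changed sign: *Nrxn3* at 90274208 without GR-con 3 (−0.018 to 0.19 over the libraries left out) and *Maml2* without GR-con 1, GR-con 3, GR-KO 1 or GR-KO 3 (−0.022 to 0.051). The called *Magi2* members at 20285476 and 20302845 did so by fold (0.044 and 0.055). Of 124 named members called, 30 stayed called by fold, 80 with the block, 44 without the trend and 49 to 76 without 1 library. Over the fits the GR motif was at 11.2% to 31.1% of lower members and ACTGTA at 27.4% to 57.1% of higher members.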
